A study of Mus musculus with 15 samples.

Results

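Formins and Ena/VASP proteins lengthen actin filaments at their fast-growing ends. Formins ride on the end of a filament and feed it with profilin-bound actin, and most are switched on by small GTPases. Ena/VASP proteins work in clusters at membranes and adhesions and shield filament ends from capping. By using up free actin monomer, formins release the MRTF cofactors of serum response factor (SRF), so they act upstream of SRF as well as in the cytoskeleton that SRF serves. In the oligodendrocyte lineage, actin assembly drives the outgrowth of processes before myelin is wrapped. The 10 genes described here, chosen by symbol, are 7 formins (Diaph1, Diaph2, Diaph3, Daam1, Daam2, Fmnl2 and Inf2) and the 3 Ena/VASP genes (Enah, Evl and Vasp). All 10 matched an identifier in every table, out of 45706 genes listed.

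RNA came from primary cultures of oligodendrocyte precursor cells (OPCs), the dividing cells that become myelin-forming oligodendrocytes (OLs), purified by immunopanning from brains of mice with both Srf alleles floxed. SRF-KO OPCs (n = 3) had received an AAV with CMV-driven eGFP-Cre and control OPCs (n = 4) the same AAV with a deleted Cre, on culture day 3, and both were collected 48 hours after infection. SRF-KO OLs (n = 4) had received a lentivirus with Cre and GFP and control OLs (n = 4) a GFP lentivirus on day 6, and both were collected on day 3 of differentiation. All 4 groups carry the floxed alleles, and no library came from Cre-treated cells without them. The labels do not say whether replicates came from separate animals, so p-values measure the spread between these cultures, which may be technical. The treatment label of the SRF-KO OLs also ends in the word control, and the series' design text names an Olig2-Cre knockdown in mesenchymal stem cells, unlike the labels of these samples. Groups follow the sample titles.

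Depth, as the sum of expected counts in a library, was 4303739 to 11721394 in SRF-KO OLs, 7188698 to 13139258 in control OLs, 9074812 to 15125229 in SRF-KO OPCs and 8964310 to 16026511 in control OPCs. Srf fell in both stages, to 0.211 ± 0.013 normalised CPM in SRF-KO OPCs (SD, n = 3) against 7.87 ± 1.71 in control OPCs (SD, n = 4; log2 fold change -5.16, edgeR adjusted p = 0.000569), and to 3.04 ± 0.96 in SRF-KO OLs against 8.29 ± 0.97 in control OLs (SD, n = 4 each; log2 fold change -1.45, edgeR adjusted p = 0.0224). Normalised CPM give a gene's counts relative to the library's total, scaled with TMM factors computed within the stage. One library of each stage stood apart on the first principal component, SRF-KO OPC replicate 2 at 47.0 against -22.8 to 5.97 in the other OPC libraries, and SRF-KO OL replicate 4 at 77.9 against -24.0 to 7.85 in the other OL libraries. The OPC cultures carried the precursor markers Pdgfra (480 to 566 CPM in SRF-KO, 547 to 580 in control) and Cspg4. The OL cultures carried the myelin gene Mbp (4751 to 6632 CPM in SRF-KO, 6413 to 13020 in control), and also Gfap, the astrocyte filament gene, at 4778 to 8977 CPM in SRF-KO and 12260 to 28230 in control. In bulk RNA, fewer cells of a type and less RNA per cell cannot be told apart.

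The sequences below are shown because SRF binds the CArG box, and the knockout removes SRF. The RefSeq promoter table (build GRCm38.p6, 250 bases before to 50 after a start) held 13 promoters of 9 of the 10 genes. A CArG box, which reads the same on both strands, was found in 0 of these 13 promoters and in 535 of all 32851 promoters (1.63%). With 1 letter allowed to differ it was found in 1 of the 13, that of Vasp, and in 21.1% of all promoters. Srf's own promoter held 2 exact boxes. No match says only that the box is not in these windows. Capitals mark the exact boxes in Srf and the near match in Vasp. In Daam2, the member with the largest difference between the stages on CPM, they mark a GC box (GGGCGG or its complement CCGCCC). A further match overlaps the marked box and is only partly in capitals. A GC box was found in 9 of the 13 promoters and in 35.7% of all. The Inf2 windows overlap each other, as do the Daam2 windows, so the 13 are not all separate sites.
Srf (chr17:46556185-46556274, minus strand): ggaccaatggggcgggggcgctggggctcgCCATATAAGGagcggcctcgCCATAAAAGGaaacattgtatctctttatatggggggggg
Vasp (chr7:19271855-19271915, minus strand): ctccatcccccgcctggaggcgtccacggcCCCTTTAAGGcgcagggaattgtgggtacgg
Daam2 (chr17:49564311-49564430, minus strand): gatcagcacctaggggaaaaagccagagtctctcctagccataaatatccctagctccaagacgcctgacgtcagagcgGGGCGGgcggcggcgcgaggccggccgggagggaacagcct

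In dividing precursors, the knockout asks whether transcripts of these elongators depend on SRF. None of the 9 members that passed the low-count filter was called by edgeR's quasi-likelihood test at an adjusted p of 0.05, against 0.0678% of the 13271 genes tested (0.0226% higher and 0.0452% lower). With library totals in place of TMM, 6 genes were called higher and 7 lower, against 3 higher and 6 lower with TMM. At an unadjusted p under 0.05 the count was also 0, against 11.9% of all genes tested, and DESeq2 called 0. Adjusted p ran from 0.576 to 0.988. The groups overlapped for all 10 members, where 12.2% of the genes tested had groups that did not overlap. The 9 log2 fold changes had a median of -0.01, with 4 above and 5 below 0, and the median over all genes tested was 0.00.

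Among the diaphanous formins, Diaph1 (mDia1; ENSMUSG00000024456, GRCm38 chromosome 18, 37843601 to 37935476) had 16.6, 17.2 and 10.8 normalised CPM in SRF-KO OPCs and 14.4, 13.2, 12.7 and 13.8 in control OPCs. The knockout libraries lay on both sides of the controls, and the log2 fold change was 0.14 (95% interval -0.26 to 0.54). Diaph2 (chromosome X, 129749742 to 130465834) had 14.0, 10.1 and 17.1 CPM in SRF-KO OPCs and 12.4, 17.5, 17.6 and 14.1 in control OPCs. Its lowest value was in SRF-KO OPC replicate 2, and its log2 fold change of -0.17 (95% interval -0.63 to 0.29) was 0.02 without that library. Diaph3 (chromosome 14, 86655367 to 87141235), a formin known from cytokinesis, had 11.04, 11.39 and 11.38 CPM in SRF-KO OPCs and 15.0, 12.4, 14.8 and 9.88 in control OPCs. The 3 knockout values stood close together inside the wider control range, with a log2 fold change of -0.21 (95% interval -0.61 to 0.20).

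Daam1 (chromosome 12, 71831078 to 71992333), a formin that binds the Wnt-pathway protein Dishevelled, had 24.6, 13.5 and 17.4 CPM in SRF-KO OPCs and 19.0, 14.6, 13.8 and 15.3 in control OPCs. SRF-KO OPC replicate 1 was the highest of the 7 libraries, and the log2 fold change of 0.23 (95% interval -0.23 to 0.68) was -0.03 without it. Fmnl2 (chromosome 2, 52857860 to 53133804), an effector of Cdc42 at protrusions, had 29.3, 16.6 and 24.9 CPM in SRF-KO OPCs and 27.2, 33.3, 27.1 and 25.8 in control OPCs. Its log2 fold change, -0.28 (SE 0.19, 95% interval -0.69 to 0.13, adjusted p = 0.576), was the farthest from 0 among the tested members. It was -0.07 without SRF-KO OPC replicate 2, the lowest library, and -0.46 without SRF-KO OPC replicate 1 (adjusted p = 0.401).

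Daam2 and Inf2 were barely detected in OPCs. Daam2 (chromosome 17, 49456022 to 49564343), which in mouse is known as a Wnt modulator that restrains oligodendrocyte differentiation, had 2, 3 and 1 counts in SRF-KO OPCs and 10, 8, 1 and 0 in control OPCs. It did not pass the filter. With no filter its log2 fold change was -0.96 (adjusted p = 0.771), so a change was not detectable at this depth. Inf2 (chromosome 12, 112588784 to 112615557), a formin of the endoplasmic reticulum that both builds and takes apart filaments, had 10, 43 and 5 counts in SRF-KO OPCs and 5, 35, 20 and 15 in control OPCs. Its interval, -1.41 to 1.48 on the log2 scale, was by far the widest of the tested members.

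Of the Ena/VASP genes, Enah (Mena; chromosome 1, 181896384 to 182019990) had 68.9, 68.3 and 63.8 CPM in SRF-KO OPCs and 64.5, 69.8, 67.9 and 85.2 in control OPCs. Of the 7 libraries only control OPC replicate 4 lay outside the span of 63.8 to 69.8 CPM. The log2 fold change was -0.10 with the narrowest interval of the set, -0.34 to 0.14, and -0.01 without that library. Evl (chromosome 12, 108554720 to 108688516) had 4.86, 7.14 and 8.27 CPM in SRF-KO OPCs and 7.76, 6.97, 6.26 and 5.16 in control OPCs. Vasp (chromosome 7, 19256929 to 19271817), a protein of focal adhesions and leading edges, had 15.9, 13.0 and 9.88 CPM in SRF-KO OPCs and 12.0, 14.1, 16.1 and 9.97 in control OPCs. For both genes the knockout libraries spread over about the whole control range, with log2 fold changes of 0.05 for Evl (95% interval -0.49 to 0.59) and -0.01 for Vasp (95% interval -0.48 to 0.46).

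**Figure D1:**
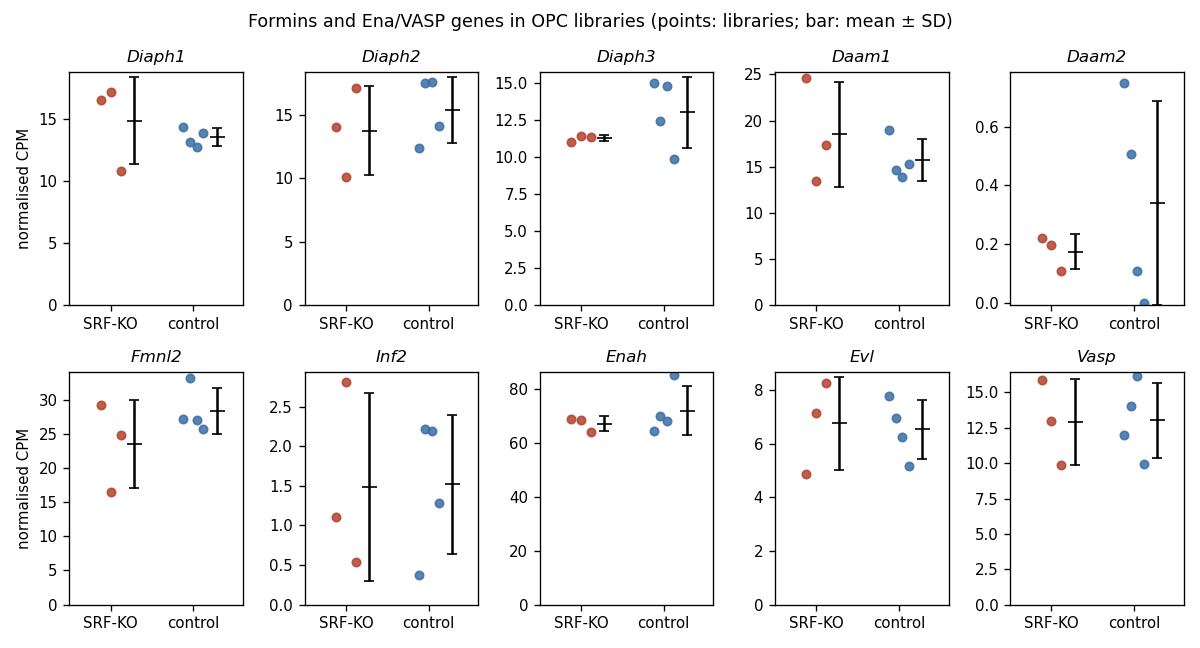
Normalised CPM (vertical axes, each with its own scale) of the 10 genes in 3 SRF-KO and 4 control OPC libraries. Points are libraries and black bars are mean ± SD. The groups overlap in every panel, and Daam2 stays under 1 CPM in all 7 libraries.

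Read as bounds, the 95% intervals of the 8 tested members other than Inf2 lay between 0.622-fold and 1.61-fold of control in OPCs. A p that misses the threshold does not show equal levels. These data do not settle changes within those bounds.

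In the OLs the same question was put to differentiating cells, and again none of the 10 members, all of which passed the filter, was called by edgeR, against 0.296% of the 15193 genes tested (0.0658% higher and 0.23% lower). At an unadjusted p under 0.05 the count was 0, against 11.6% of all genes tested, and DESeq2 called 0. Adjusted p ran from 0.659 to 0.963. The groups overlapped for all 10 members, where 8.09% of the genes tested had groups that did not overlap. The log2 fold changes had a median of 0.05, with 7 above and 3 below 0, beside a median of 0.02 over all genes tested. With library totals the median over all genes tested was 0.24, and 39 genes were called higher and 35 lower, against 10 higher and 35 lower with TMM, so signs of single members near 0 in OLs depend on the scaling.

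Enah had 86.7, 81.7, 74.7 and 89.6 CPM in SRF-KO OLs and 61.7, 71.4, 79.1 and 83.5 in control OLs. SRF-KO OL replicates 1 and 4 were above every control, while replicates 2 and 3 lay within the control range. The log2 fold change was 0.17 (SE 0.14, 95% interval -0.13 to 0.48, adjusted p = 0.705). Evl had 14.2, 11.4, 13.0 and 14.3 CPM in SRF-KO OLs and 11.3, 16.3, 15.3 and 14.5 in control OLs, a log2 fold change of -0.12 (95% interval -0.46 to 0.22). Vasp had 10.9, 10.8, 12.8 and 13.2 CPM in SRF-KO OLs and 15.3, 14.5, 11.6 and 10.1 in control OLs, a log2 fold change of -0.12 (95% interval -0.49 to 0.25). For both genes the 4 knockout values fell inside the control range, and with library totals the sign turned (0.09 for Evl and 0.11 for Vasp).

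Fmnl2 had 125, 121, 111 and 104 CPM in SRF-KO OLs and 110, 124, 138 and 159 in control OLs. The 2 highest values were controls, and the other 2 controls were interleaved with the knockout libraries, with a log2 fold change of -0.21 (SE 0.15, 95% interval -0.54 to 0.12, adjusted p = 0.659). In TPM the sign was the other way, 0.24 on the log2(TPM + 1) scale, and with library totals the value was -0.01. Inf2 had 7.79, 6.14, 10.1 and 11.5 CPM in SRF-KO OLs and 8.93, 8.00, 5.97 and 5.73 in control OLs. SRF-KO OL replicates 3 and 4 were above every control, and the log2 fold change was 0.27 (SE 0.23, 95% interval -0.24 to 0.78, adjusted p = 0.721). It was 0.09 without SRF-KO OL replicate 4 and 0.51 with library totals (adjusted p = 0.236). With library totals and on log2(TPM + 1), Inf2 was the 1 member with an unadjusted p under 0.05.

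Daam2 was even across the OL libraries, at 135, 133, 155 and 147 CPM in SRF-KO OLs and 138, 130, 147 and 144 in control OLs. The log2 fold change was 0.03 (95% interval -0.25 to 0.31), resting on 753 to 1669 counts per SRF-KO library and 959 to 2068 per control library. Daam1 had 62.9, 63.3, 51.2 and 53.0 CPM in SRF-KO OLs and 52.7, 47.5, 56.3 and 66.2 in control OLs, again interleaved (0.05, 95% interval -0.27 to 0.37). The diaphanous genes did not separate either. Diaph1 had 8.81, 9.81, 13.2 and 14.2 CPM in SRF-KO OLs and 11.7, 9.49, 9.95 and 12.2 in control OLs. Diaph2 ran from 15.2 to 21.9 CPM in SRF-KO OLs and from 15.3 to 20.7 in control OLs. Diaph3 ran from 25.0 to 29.2 CPM in SRF-KO OLs and from 23.1 to 27.4 in control OLs. Their log2 fold changes lay between 0.05 and 0.09.

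**Figure D2:**
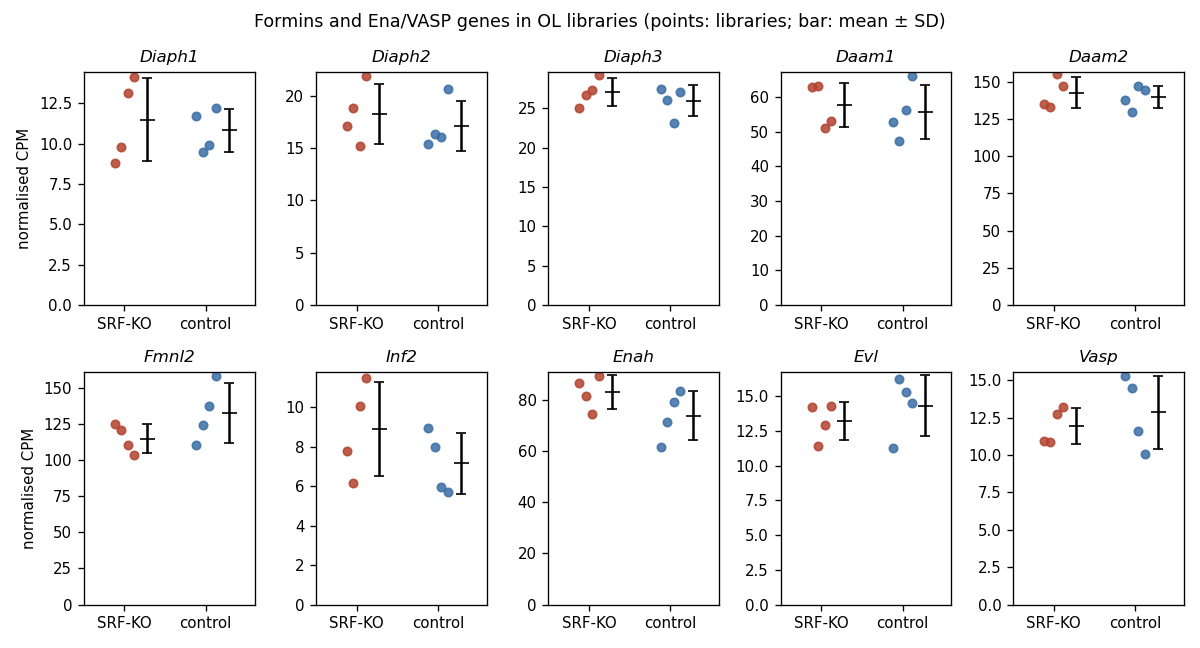
Normalised CPM (vertical axes, each with its own scale) of the 10 genes in 4 SRF-KO and 4 control OL libraries. Points are libraries and black bars are mean ± SD. The groups overlap in every panel, and Daam2 lies between 130 and 155 CPM in all 8 libraries.

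The 95% intervals of the 9 members other than Inf2 lay between 0.690-fold and 1.39-fold of control in OLs, and that of Inf2 reached 1.71-fold. SRF-KO OL replicate 4 weighed on the all-gene counts, since 636 genes were called without it and 45 with it. Without that library 0 of the 10 members were called, and their log2 fold changes ran from -0.20 to 0.11. Srf itself was at 2.06 to 4.34 CPM in SRF-KO OLs, against 7.13 to 9.34 in control OLs. Its listed length was 9324 bases in OL tables and 4093 in OPC tables, so Srf was not counted alike in the stages.

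**Figure D3:**
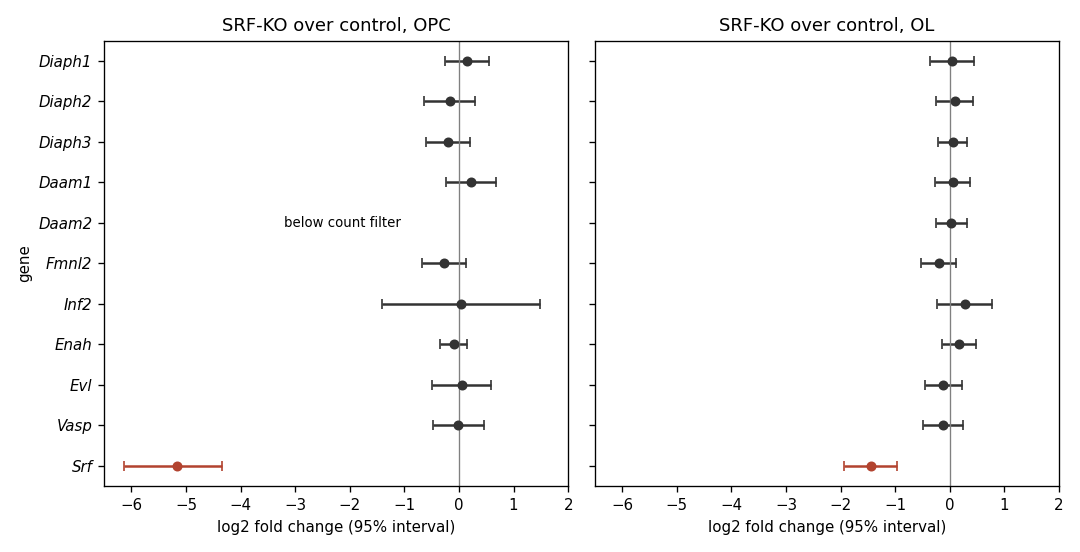
Log2 fold change of SRF-KO over control (points) with 95% intervals (bars) in OPCs (left) and OLs (right), for the 10 genes and Srf. The intervals of all tested members cross 0, while Srf lies at -5.16 in OPCs and -1.45 in OLs.

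Whether the knockout effect differs between the stages was tested as an interaction over all 15 libraries. The knockout effects also differed in viral vector and in how reads were counted, as described below. The fall of Srf differed too, at log2 -5.16 in OPCs and -1.45 in OLs (interaction 3.68, edgeR adjusted p = 0.00465). An interaction therefore cannot be assigned to stage alone. None of the 10 members was called by edgeR, against 0.112% of the 16135 genes tested (0.0434% higher and 0.0682% lower). With library totals, 11 genes were called higher and 11 lower, against 7 higher and 11 lower with TMM. At an unadjusted p under 0.05 the count was 0, against 9.25% of all genes tested, and DESeq2 called 0. The differences, the OL effect minus the OPC effect, ran from -0.18 for Evl to 1.03 for Daam2 on the log2 scale. The Daam2 value (SE 0.74, 95% interval -0.47 to 2.64, adjusted p = 0.704) rests on its few OPC counts and was 0.42 without control OPC replicate 1, the library with 10 of them, and 1.41 without control OPC replicate 4, the library with 0. In that last fit its unadjusted p was under 0.05. For Fmnl2, which was below control in both stages by its point estimates, the difference was 0.06 (95% interval -0.44 to 0.55).

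Around these genes, 4 further lists with 45 genes in all were examined. They were 7 other formins, formin regulators, Ena/VASP partners, and actin monomer supply with barbed-end capping. In OPCs 0 of the 39 tested genes of these lists were called in either direction, 12 were above and 27 below 0, and 6 had an unadjusted p under 0.05. Over all genes tested in OPCs, 0.0678% were called, 49.8% were above 0 and 11.9% had an unadjusted p under 0.05. In OLs 0 of 42 were called, 16 were above and 26 below 0, and 3 had an unadjusted p under 0.05. Over all genes tested in OLs, 0.296% were called, 53.9% were above 0 and 11.6% had an unadjusted p under 0.05. Among the genes of these lists, the smallest p in each stage was that of Actb, cytoplasmic actin, the substrate of the elongators. Actb had 2983 ± 419 CPM in SRF-KO OPCs (SD, n = 3) and 3946 ± 241 in control OPCs (SD, n = 4), a log2 fold change of -0.40 (edgeR adjusted p = 0.187). In OLs it had 3557 ± 971 CPM in SRF-KO and 7766 ± 2034 in control (SD, n = 4 each), a log2 fold change of -1.13 (edgeR adjusted p = 0.154).

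The 2 genes with the smallest p in each list are given here, none of which passed the test. Rhoa, the GTPase that opens Diaph1, had 504 ± 33.6 CPM in SRF-KO OPCs and 585 ± 16.4 in control OPCs (log2 -0.22, edgeR adjusted p = 0.304). Zyx, an adhesion protein that recruits Ena/VASP, had 55.1 ± 3.23 CPM in SRF-KO OPCs and 67.4 ± 4.72 in control OPCs (log2 -0.29, edgeR adjusted p = 0.299). Raph1 (lamellipodin), another recruiter of Ena/VASP, had log2 fold changes of -0.41 in OPCs and 0.23 in OLs. Actg1 was at -0.20 in OPCs, and the actin nucleator Spire2, near the detection limit, was at -1.15 there. In OLs Rhob was at -0.62 (edgeR adjusted p = 0.291), the kinase gene Abl1 at -0.32, the profilin gene Pfn1 at -0.52 and Rhod at 0.41. Of the other formins listed, Fmn2 was at -0.16 in OPCs and 0.26 in OLs, Fmnl1 at 0.22 in OPCs and Fhod1 at -0.41 in OLs.

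Markers of several cell types were summed beside these results. In either stage 0 of their genes were called, against 0.0678% of all genes tested in OPCs and 0.296% in OLs. The summed level of 7 astrocyte markers was 8465 to 12790 CPM in SRF-KO OLs and 16060 to 33310 in control OLs. Most of that gap was Gfap, at 7486 ± 1928 CPM in SRF-KO OLs and 18740 ± 6748 in control OLs. The other 6 had log2 fold changes of -0.36 (Aqp4) to 0.03 (Aldh1l1). Of the 7, 1 had an unadjusted p under 0.05, against 11.6% of all genes tested in OLs. The summed level of 8 myelin and OL markers was 13020 to 18230 in SRF-KO OLs and 18380 to 35150 in control OLs. All 8 had log2 fold changes below 0 (median -0.65), where 53.9% of all genes tested in OLs were above 0. Of the 8, 5 had an unadjusted p under 0.05, against 11.6% of all genes tested in OLs. The 8 precursor markers summed to 2813 to 3467 CPM in SRF-KO OLs and 3294 to 4836 in control OLs, and to 4938 to 6439 in SRF-KO OPCs and 6602 to 6948 in control OPCs. These markers did not share a direction in OLs, where Olig1 was at -0.62, Sox10 at -0.60 and Olig2 at -0.40 on the log2 scale, and Pdgfra at 0.39, Cspg4 at 0.34 and Ptprz1 at 0.31. In OPCs the other sums were 991 to 1088 CPM in SRF-KO and 944 to 1078 in control for astrocyte markers, and 445 to 481 in SRF-KO and 402 to 435 in control for OL markers. The near-equal astrocyte sums in OPCs combine 6 markers above 0, among them Aqp4 at 0.77, Gja1 at 0.65, Gfap at 0.52 and Aldoc at 0.39, with Sox9 at -0.35. Of the 7, 5 had an unadjusted p under 0.05, against 11.9% of all genes tested in OPCs. Microglial markers summed to no more than 14.8 CPM in any library, with Cx3cr1, Aif1, C1qa, C1qb and Tmem119 at 0 in all OPC libraries. Neuronal markers summed to 37.2 to 47.0 CPM in SRF-KO OPCs and 41.4 to 49.6 in control OPCs, and to 111 to 184 in SRF-KO OLs and 127 to 157 in control OLs. Vascular and fibroblast markers stayed at or under 70.9 CPM, with Cldn5 at 0 throughout. What part cell composition has in the values of the elongators was not tested.

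Levels can be compared between genes only per length, for which the deposited TPM serve. In control OPCs Enah was highest at 12.2 ± 0.81 TPM, followed by Fmnl2 at 10.6 ± 1.73 and Vasp at 9.48 ± 2.51 (SD, n = 4), and the ranges of these neighbours overlapped. Evl at 5.18 ± 0.70 TPM lay below Vasp without overlap. Diaph3, Diaph2, Daam1 and Diaph1 followed at 4.22, 3.93, 3.73 and 3.46 TPM, each overlapping the next. Inf2 at 0.49 ± 0.29 TPM was below all of these without overlap, and Daam2 averaged 0.078 TPM, listed at 0 in 1 library. In SRF-KO OPCs the same 3 genes led, with Enah at 10.3 ± 2.60, Fmnl2 at 9.88 ± 2.31 and Vasp at 8.53 ± 1.89 TPM (SD, n = 3). The 7 formins together held 20.3 to 28.5 TPM in SRF-KO OPCs and 23.5 to 30.4 in control OPCs, and the 3 Ena/VASP genes 21.8 to 27.4 in SRF-KO OPCs and 23.8 to 30.3 in control OPCs.

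The stages were counted differently. Among 8995 genes with 1 annotated transcript and an intron, listed lengths in OPC tables equalled the spliced transcript in 89.8% and in OL tables the genomic span in 90.0%, and the reverse occurred in 0%. OL reads were thus assigned over gene bodies, introns included, as far as the listed lengths show. For the members, the median length listed in OL tables was 3.51 times that in OPC tables for Diaph1, 17.9 times for Daam2, 26.9 times for Daam1 and 112 times for Diaph2. CPM in OLs can be raised by intronic reads, while TPM in OLs is divided by intron-bearing length. Stage and counting method cannot be told apart, and the viral vector differed too.

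On CPM, 8 of the 10 members were higher in control OLs than in control OPCs and 0 were lower in edgeR, where 79.7% of the 15027 genes tested were called, 42.5% higher and 37.1% lower. With library totals 6 members were higher and 1, Diaph1, was lower, and over all genes tested 5119 were called higher and 6843 lower, against 6390 higher and 5580 lower with TMM. On the log2(TPM + 1) scale, 1 member was called higher and 7 lower by limma, where 87.3% of the genes tested were called, 17.3% higher and 70.0% lower. This second scale was chosen after the data were seen. The member called higher on both scales was Daam2. For Diaph2, Diaph3, Daam1, Enah and Evl the calls had opposite directions.

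Daam2 had 146 ± 10.4 CPM in control OLs and 0.302 ± 0.307 in control OPCs (SD, n = 4 each; scaled over the control libraries), a log2 fold change of 8.73 (SE 0.28, edgeR adjusted p = 1.67e-11). By TPM it had 2.21, 2.19, 3.00 and 4.02 in control OLs and 0.16, 0.12, 0.03 and 0.00 in control OPCs. Every OL library exceeded every OPC library on both scales. No other annotated gene overlaps Daam2 in GENCODE M21. The SRF-KO libraries, which share no library with the controls, gave 160 ± 9.45 CPM in OLs (SD, n = 4) and 0.167 ± 0.058 in OPCs (SD, n = 3), a log2 fold change of 9.76 (edgeR adjusted p = 1.50e-08). In those libraries the same 8 members were called higher, where 66.6% of the 15102 genes tested were called, 37.6% higher and 28.9% lower. Astrocyte markers also differed between the stages, in both directions. Gfap had 18740 ± 6748 CPM in control OLs and 56.6 ± 17.5 in control OPCs (SD, n = 4 each). Aqp4, a water channel of astrocytes, had 2406 ± 433 CPM in control OLs and 17.6 ± 3.58 in control OPCs (SD, n = 4 each). These CPM were scaled within each stage, unlike those of Daam2. The edgeR log2 fold changes of control OLs over control OPCs were 8.61 for Gfap and 7.33 for Aqp4. They were 4.59 for Gja1, 2.34 for Slc1a2 and 1.92 for Aldoc, but -0.89 for Aldh1l1 and -0.77 for Sox9. Which cells carry the Daam2 signal was not tested. Within the OLs, Aqp4 overlapped between SRF-KO libraries (1732 to 2030 CPM) and control libraries (1968 to 3001 CPM). Aldh1l1, Slc1a2, Gja1 and Aldoc overlapped too, and Gfap and Sox9 did not. Daam2 overlapped, as did most genes: 8.09% of the genes tested in OLs had groups that did not overlap.

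Fmnl2 and Inf2 were higher in control OLs on CPM and near level on TPM. Fmnl2 had 139 ± 23.9 CPM in control OLs and 25.0 ± 3.12 in control OPCs (log2 2.47, edgeR adjusted p = 1.73e-09), beside 12.5 ± 4.96 TPM in control OLs and 10.6 ± 1.73 in control OPCs. Fmnl2 spans 275945 bases, while its median listed length in the OL tables was 22989, well short of the span. Inf2 had 7.46 ± 1.51 CPM in control OLs and 1.34 ± 0.78 in control OPCs (log2 2.49, edgeR adjusted p = 4.43e-05), beside 0.57 ± 0.067 TPM in control OLs and 0.49 ± 0.29 in control OPCs. Both were also called higher in OLs among SRF-KO libraries, with log2 fold changes of 2.53 for Fmnl2 and 2.67 for Inf2.

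Daam1 had 58.3 ± 9.27 CPM in control OLs and 13.8 ± 2.05 in control OPCs, but 0.78 ± 0.32 TPM in control OLs and 3.73 ± 0.34 in control OPCs. Diaph3 had 27.1 ± 2.00 CPM in control OLs and 11.5 ± 2.19 in control OPCs, but 0.12 ± 0.034 TPM in control OLs and 4.22 ± 0.85 in control OPCs. Evl (log2 1.37) and Diaph2 (log2 0.41, edgeR adjusted p = 0.0313) showed the same turn of direction between CPM and TPM. Enah had 77.4 ± 11.3 CPM in control OLs and 63.3 ± 7.46 in control OPCs (log2 0.29, edgeR adjusted p = 0.0372). That call was lost in 5 of the 8 fits that left out a library, namely control OPC replicates 1, 2 and 3 and control OL replicates 3 and 4, and the value was -0.04 with library totals. The Diaph2 call was lost without control OPC replicates 1 or 4 or control OL replicate 4, with values of 0.30 to 0.47 over the 8 fits. Diaph1 (log2 -0.07) and Vasp (log2 0.23) were not called on CPM with TMM and were called lower in OLs on TPM. With library totals Diaph1 was called lower in OLs on CPM as well (log2 -0.40, edgeR adjusted p = 0.0487). With no low-count filter the Enah and Diaph2 calls were lost, and with library totals the Diaph2 value was 0.080.

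**Figure D4:**
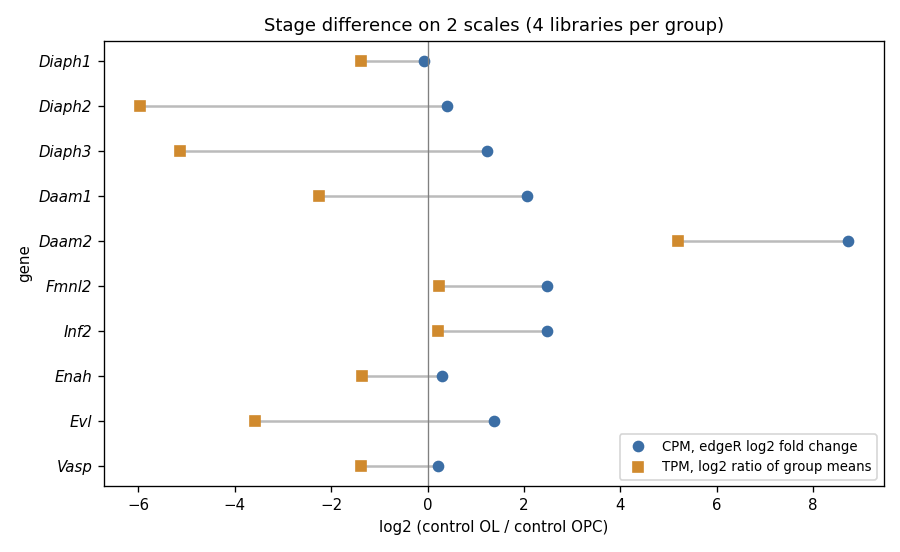
Log2 ratio of control OL to control OPC for the 10 genes, as the edgeR fold change of CPM (circles) and as the ratio of mean TPM (squares), 4 libraries per group. Daam2 lies above 0 on both scales, at 8.73 and 5.20, while Diaph2 lies at 0.41 by CPM and -5.97 by TPM.

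The order of levels by TPM also differed between the stages, but the divisor changed as well. Listed length in OL tables was 112 times that in OPC tables for Diaph2 and 108 times for Diaph3, against 3.51 times for Diaph1. Stage and counting cannot be told apart in this order. In control OLs, per gene-body length, Fmnl2 led at 12.5 ± 4.96 TPM without overlap with Enah at 4.74 ± 1.55. Vasp at 3.66 ± 1.04 and Daam2 at 2.86 ± 0.86 TPM came next, and the ranges of Enah, Vasp and Daam2 overlapped from one to the next. Diaph1 at 1.34, Daam1 at 0.78, Inf2 at 0.57 and Evl at 0.44 TPM followed, and Diaph3 at 0.12 and Diaph2 at 0.063 TPM, the 2 members with the longest gene bodies, were last. In SRF-KO OLs Fmnl2 also led at 14.5 ± 3.53 TPM, ahead of Enah at 5.00 ± 2.03 and Daam2 at 3.52 ± 0.62 (SD, n = 4).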

How the data were processed

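PolyA RNA libraries (Smart-seq2, which does not mark strand; single reads of 63 bases) were tabulated with RSEM after bcl2fastq and STAR, per the submitters' processing notes, which list GRCm38 and Rnor_6.0 as builds but give no role. The authors deposited, per library, RSEM expected counts (estimated reads per gene, with shared reads split) and TPM (counts per effective length, scaled to a fixed sum per library). The members and lists were chosen with earlier results of these data known. Symbols came from the reference gene table and coordinates from GENCODE M21 (GRCm38). Without strand, reads of overlapping genes cannot be told apart; Evl overlaps the protein-coding gene Degs2 and Enah overlaps 4 entries of the annotation class TEC.

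Expected counts were rounded and fitted with edgeR 4.0.16 in R 4.3.3 (filterByExpr, TMM, quasi-likelihood F-tests, Benjamini-Hochberg adjustment over all genes tested, threshold 0.05). Knockout effects were fitted within a stage; control OLs were set against control OPCs alone, and all 15 libraries entered the interaction. SE was taken from F and the unshrunk log2 fold change, and 95% intervals use it with the test's degrees of freedom; both cover the spread between libraries. Alternatives were DESeq2 1.42.0, library totals, no filter, a replicate block, leaving out each library and limma 3.58.1 on log2(TPM + 1). Fits were tested on simulated data. All 10 members and Srf were named, and from each further list the 2 genes with the smallest p.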

Additional observations from a re-analysis of the deposited data

How the results depend on the processing

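No member was called in either knockout comparison or in the interaction under the alternatives run; the interaction was not fitted on TPM. The lowest adjusted p was 0.401 in OPCs, 0.236 in OLs and 0.386 for the interaction. An unadjusted p under 0.05 was reached by Fmnl2 in OPCs without SRF-KO OPC replicate 1, by Inf2 in OLs with library totals and on TPM, and by Daam2 in the interaction with the replicate block (1.32) and without control OPC replicate 4 (1.41). The count of members called between the stages stayed at 6 to 8, but directions and members differed. With edgeR and TMM 8 were higher, where 79.7% of the genes tested were called. On log2(TPM + 1) 1 was higher and 7 were lower, where 87.3% were called. Diaph1 and Vasp were called only on the latter of these 2 scales, and Fmnl2 and Inf2 only on the former. Signs turned as follows, and the cause was not tested. Those between the stages were not all near 0, since 5 members were called in opposite directions on CPM and TPM. In SRF-KO OPCs the replicate block gave -0.030 for Inf2 and -0.073 for Evl, log2(TPM + 1) gave -0.053 for Inf2 and -0.027 for Evl, and library totals gave 0.0039 for Vasp. In SRF-KO OLs log2(TPM + 1) gave 0.24 for Fmnl2 and 0.044 for Evl, and library totals gave 0.090 for Evl and 0.11 for Vasp. In the interaction library totals gave 0.10 for Diaph1, 0.0092 for Daam1, 0.022 for Evl and 0.11 for Vasp, and the block 0.010 for Vasp. Between control stages log2(TPM + 1) gave -2.20 for Diaph2, -2.21 for Diaph3, -1.42 for Daam1, -1.25 for Enah, -2.10 for Evl and -1.17 for Vasp, and library totals -0.041 for Enah and -0.13 for Vasp; here the divisor, intron-bearing in OL tables, is part of the scale.

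Leaving out 1 library at a time turned the sign in some fits. The ranges in OPCs were -0.032 to 0.42 for Daam1, -0.36 to 0.018 for Diaph2, -0.11 to 0.23 for Evl, -0.87 to 0.41 for Inf2 and -0.18 to 0.14 for Vasp. In OLs they were -0.018 to 0.15 for Daam1, -0.014 to 0.061 for Daam2, -0.11 to 0.16 for Diaph1, -0.022 to 0.20 for Diaph2 and -0.011 to 0.093 for Diaph3. In the interaction they were -0.36 to 0.060 for Daam1, -0.31 to 0.034 for Diaph1, -0.13 to 0.23 for Fmnl2, -0.21 to 1.15 for Inf2 and -0.29 to 0.028 for Vasp, and between the stages -0.13 to 0.0027 for Diaph1.

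The all-gene counts varied more: 9 called in OPCs became 121 in DESeq2, 101 with no filter, 5 on TPM and 2 with the replicate block, and 45 in OLs became 290, 129, 3 and 5. The interaction's 18 became 169 in DESeq2, 88 with no filter and 0 with the block. Same-numbered libraries correlated at -0.015 to 0.051 in OPCs and -0.281 to 0.025 in OLs, so the numbers were not taken as pairs. Depth limits Daam2 and Inf2 in OPCs.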
